A study of Homo sapiens with 6 samples.

Results

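The MYC and MAX network is a family of transcription factors that bind DNA as pairs. Its members measured here were MYC, MAX, MXD1, MXD3, MXD4, MXI1, MNT and MLX, chosen by name as 8 of the 18701 genes with a usable probe set. They were followed in HT29-tsp53 cells, the human colorectal adenocarcinoma line HT-29 with a murine V135A p53 transgene, whose product works at 32 °C and loses activity when warmed to the restrictive temperature. All 6 cultures carried this transgene. In order of time, 2 cultures were controls kept at the restrictive temperature (p53 off), 2 spent 16 h at 32 °C (p53 on), and 2 had the same 16 h and then recovered for 6 h (p53 on then off). Each RNA went on its own Human Gene 1.0 ST array from Affymetrix, 6 in all, with each group present once in experiment 1 and once in experiment 2.

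The labels put the restrictive temperature at 38 °C while the protocols write 37 °C. For the recovery cultures, 1 label names 32 °C for the final step although the rest describe a return to warmth. Every culture with active p53 was also the colder one, and no culture without the transgene was used here, so p53 activity and temperature cannot be told apart. HT29-tsp53 is a single engineered line, and nothing in the labels says whether the experiments came from separately derived clones.

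MYC is a short-lived activator of growth genes that works only when paired with MAX, and the pair binds the E-box CACGTG and related letters. MXD1, MXD3, MXD4, MXI1 and MNT pair with MAX too, and these pairs bring the SIN3 corepressor with its histone deacetylases to the same sites, so that they oppose MYC. MLX pairs with the glucose-sensing factors MondoA (MLXIP) and ChREBP (MLXIPL), and also with some MXD proteins and MNT. In colorectal cells β-catenin and its TCF partners drive MYC transcription, and p53 has been described in other systems as a repressor of MYC.

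The sequences below show where members carry the network's own binding letters. RefSeq (GRCh38.p14) windows of 300 bases, 250 before and 50 after a transcription start, were searched on both strands. There were 10 windows for 7 members, 2 of them for MAX and 3 for MXI1. MYC had no window in the set used, so the counts below say nothing of it. The letters CACGTG were found in 3 of the 10 windows, those of MXD4, MNT and MLX, against 7.26% of all 35116 windows. The stretches around them are printed 5′ to 3′ on the gene's strand with CACGTG in capitals.
MXD4, chr4:2262315-2262359, minus strand, first capital 238 bases before the start: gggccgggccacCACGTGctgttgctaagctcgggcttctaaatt
MNT, chr17:2401221-2401280, minus strand, first capital 193 bases before the start: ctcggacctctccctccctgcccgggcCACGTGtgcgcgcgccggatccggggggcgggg
MLX, chr17:42567023-42567082, plus strand, first capital 50 bases before the start: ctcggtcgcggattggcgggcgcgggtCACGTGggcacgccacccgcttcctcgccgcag

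MXI1 is the member with the largest change below, and RefSeq gives it several starts. The 60 bases before each start are shown to make plain that the sequences upstream of its starts are unlike.
MXI1 first start, chr10:110207545-110207604, plus strand: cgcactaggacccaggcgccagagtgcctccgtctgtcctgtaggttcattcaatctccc
MXI1 middle start, chr10:110210171-110210230, plus strand: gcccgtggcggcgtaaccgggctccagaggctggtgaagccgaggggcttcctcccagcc
MXI1 last start, chr10:110225936-110225995, plus strand: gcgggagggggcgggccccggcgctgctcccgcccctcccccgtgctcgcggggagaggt

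None of the 3 MXI1 windows held CACGTG. The variant CACGCG, which does not overlap CACGTG, was found in 2 of the 10 windows, those of MXD3 and the last MXI1 start, 9 bases after the start in each, against 11.4% of all windows. The variant CATGTG was in 0 of the 10 windows, against 11.1% of all, and the p53 half-site consensus was in 0 of the 10, against 6.63% of all. A match is a description of these letters and not a binding site, and a window without one says nothing of sites elsewhere in the gene.

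The deposited values are log2 signals per probe set, and a gene's value on an array was the median of its probe sets. The members had between 7 (MYC, MXD3 and MNT) and 17 (MAX) probe sets, 80 in all. All 8 lay above the log2 level of 3.62 used to leave out dim genes and were among 14026 genes tested. Groups were compared in limma with a replicate block for experiment 1 or 2, calls needed an adjusted p under 0.05, and errors beside log2 differences are limma's standard errors with n = 2 arrays per group. In log2 difference 1 unit is a doubling. Signals of different genes are not on a common scale and are not set against each other.

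The arrays carried the marks of active p53. All 10 listed p53 targets rose in p53 on and fell on recovery, with median log2 differences of 2.98 and -2.96. CDKN1A, the p21 cell cycle inhibitor, differed by 3.21 ± 0.19 in p53 on (adjusted p = 7.67e-05), and MDM2, the ligase that degrades p53, by 3.52 ± 0.17 (adjusted p = 2.6e-05). Of 12 colorectal epithelial markers, 11 were above the dim level, KRT8, KRT18 and EPCAM among them. GPA33 was only just above it at 3.65, and CDH17 was below it at 2.53. Of 7 leukocyte markers, 4 were below it, PTPRC at 1.70 among them, as were 3 of 5 endothelial markers and 2 of 8 fibroblast markers, DCN (2.03) and LUM (2.30). Most fibroblast markers were above it, COL1A1 (5.57) and ACTA2 (4.76) among them. So were CD14 (5.29) and ITGAM (5.20) of the leukocyte list, so the dim level alone does not separate the cell types. The mean level of the fibroblast list ran from 3.98 to 4.07 in p53 on, against 3.75 to 3.84 in p53 off, and that of the leukocyte list from 3.45 to 3.61, against 3.39 to 3.54. The endothelial list ran from 3.36 to 3.59 in p53 on, against 3.64 to 4 in p53 off. Single markers moved, with ACTA2 at 1.10 (adjusted p = 0.0238), CEACAM5 at -0.72 (adjusted p = 0.034) and TEK at -0.77 (adjusted p = 0.0384) in p53 on. Without the block their adjusted p was 0.12, 0.262 and 0.324 in that order. The calls of CEACAM5 and TEK were also lost without any 1 of the p53 on or p53 off arrays, and that of ACTA2 without p53 on array 1 or p53 off array 1. After recovery CEACAM5 fell by 1.04 from p53 off (adjusted p = 0.0476, or 0.757 without the block), a call lost without any 1 of the recovery or p53 off arrays. Their part in the results below was not tested. Array pairs correlated at r between 0.911 and 0.975 across genes, which are not independent replicates.

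**Figure D1:**
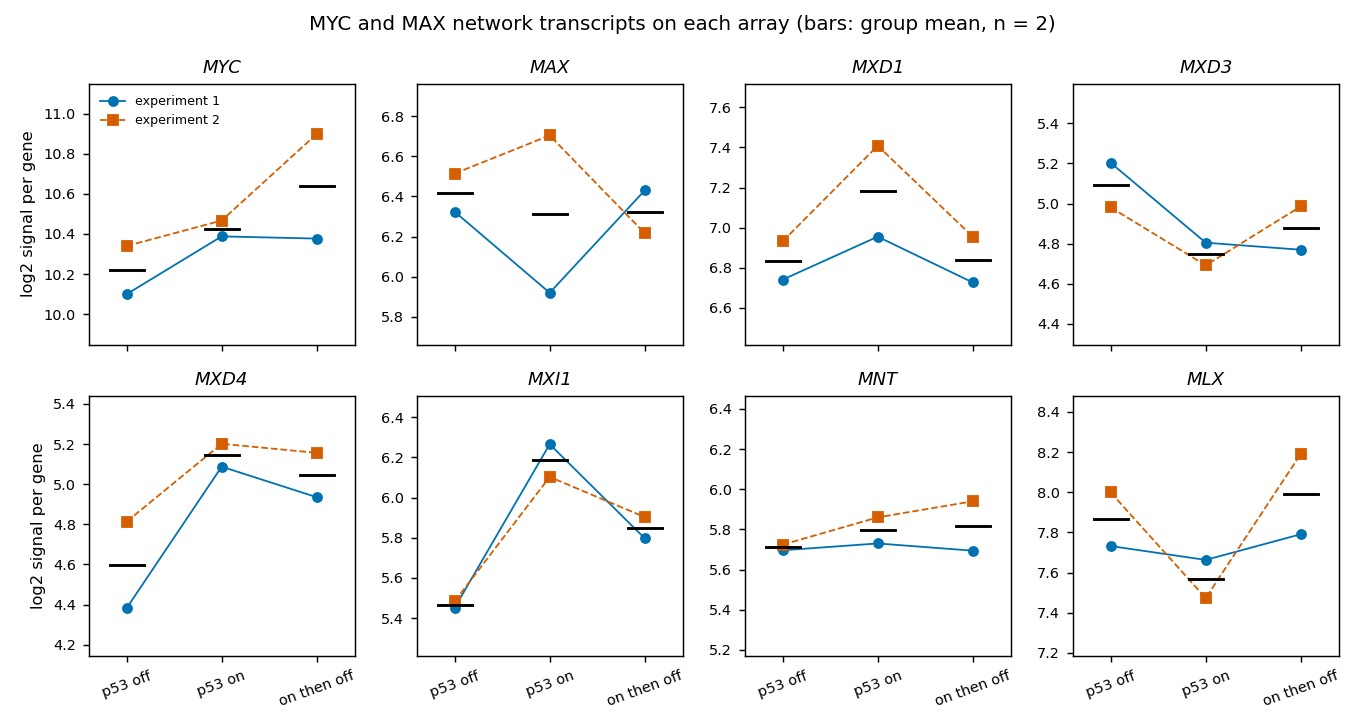
Log2 signal (y axis) of each network member in p53 off, p53 on and p53 on then off (x axis). Circles are experiment 1, squares experiment 2 and bars the group means of n = 2 arrays, and every panel spans the same range of log2 units. MXI1 peaks in p53 on in both experiments, MYC does not fall in p53 on in either, and the MAX lines cross.

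Few network members passed the threshold while p53 was on. MXI1 was the only one of the 8 that was called, and it rose 1.65-fold, while no member was called lower. Over all genes tested, 5.18% were called higher and 6.28% lower in this comparison, so 1 of 8 is close to the background share. Without the block 0 members were called, against 0.898% of all genes called higher and 0.585% lower. At an unadjusted p under 0.05 there were 2 members with the block, MXI1 and MXD4, and 2 without it, against 26.7% and 15.4% of all genes. Both p53 on arrays lay above both controls for 5 members, against 22.6% of all genes, and below both for 2, against 20.6%. The members' median log2 difference was 0.15, against 0.02 for all genes tested. Values were higher in both experiments for 5 members, against 33.5% of all genes, lower in both for 2, against 31.6%, and of mixed sign for MAX.

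MYC itself had log2 signals of 10.10 and 10.34 in p53 off, 10.39 and 10.47 in p53 on, and 10.38 and 10.90 in p53 on then off. Both p53 on arrays were above both controls. The difference of p53 on from p53 off was 0.21 ± 0.18 (adjusted p = 0.519), with 0.29 in experiment 1 and 0.13 in experiment 2. Its 95% confidence interval in the fit with the block ran from -0.21 to 0.62, or from 0.865-fold to 1.54-fold. Without the block the standard error was 0.24, so that lower bound holds for the blocked fit only. With n = 2 arrays per group it measures the spread between these arrays. Of the 7 MYC probe sets, 2 were higher in both experiments and 2 lower in both, against 29.1% and 29.6% of all probe sets, with differences between -0.47 and 0.28. The probe set at -0.47 had a mean log2 level of 0.47, far under the dim level. MYC was not called in p53 on under any of the 14 other settings tried, where its difference lay between 0.06 and 0.36.

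MAX, the shared partner of the whole network, had log2 signals of 6.32 and 6.51 in p53 off, 5.92 and 6.70 in p53 on, and 6.43 and 6.22 in p53 on then off. The p53 on arrays lay on either side of the controls. Its difference in p53 on was -0.11 ± 0.24 (adjusted p = 0.82), with -0.40 and 0.19 in the experiments. Single MAX probe sets ranged from -1.19 to 1.41, with 4 of 17 higher in both experiments and 6 lower in both. Without p53 on array 1 the MAX difference was 0.29. With both arrays kept in each compared group, the other settings gave it from -0.38 to -0.02, not called in any. The gene's median can rest on different probe sets on different arrays, so the sign in each experiment is uncertain. The brightest probe sets, at mean log2 levels of 9.22 and 9.07, differed by -0.17 and -0.21, and a dimmer one at 4.05 by 0.91.

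MXI1, an antagonist of MYC that pairs with MAX, had log2 signals of 5.45 and 5.48 in p53 off, 6.27 and 6.10 in p53 on, and 5.80 and 5.90 in p53 on then off. Both p53 on arrays were above all the others, and both recovery arrays lay between them and the controls. In p53 on it rose by 0.72 ± 0.17 (adjusted p = 0.0322), with 0.82 and 0.62 in the experiments and a 95% confidence interval from 0.32 to 1.11. All 13 MXI1 probe sets had a positive difference, from 0.06 to 1.30, and 11 were higher in both experiments, against 29.1% of all probe sets with 1 gene symbol. The median of these 13 differences was 0.545, below the 0.72 of the gene value, which can rest on different probe sets on different arrays. Tested singly, 0 of 224320 probe sets were called in limma in this comparison, so the call stands for the gene's median and not for any one exon. Which of the MXI1 starts shown above was used was not determined, because the positions of its probe sets were not at hand.

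The MXI1 call is close to the threshold. It was not called without the block (adjusted p = 0.139), without the filter on dim genes (adjusted p = 0.0709), or without p53 off array 1 (0.106), p53 off array 2 (0.119), p53 on array 1 (0.131) or p53 on array 2 (0.0608), where its difference stayed between 0.60 and 0.83. The cold-inducible RNA-binding genes rose beside it, with log2 differences of 1.10 ± 0.19 for CIRBP (adjusted p = 0.00916) and 1.06 ± 0.17 for RBM3 (adjusted p = 0.00694). Their part in the MXI1 change was not tested. Without the block adjusted p was 0.0813 for CIRBP and 0.299 for RBM3.

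MXD4, another MAX-binding repressor, had log2 signals of 4.38 and 4.81 in p53 off, 5.09 and 5.20 in p53 on, and 4.93 and 5.16 in p53 on then off. The p53 on arrays were both above the controls. The difference was 0.55 ± 0.18 (adjusted p = 0.0819), with a 95% confidence interval from 0.15 to 0.94. It did not pass with the median of the probe sets, but it did with their mean (0.58, adjusted p = 0.0136). MXD4 probe sets were spread widely, from -0.48 to 1.73, with 6 of 11 higher in both experiments and 2 lower in both.

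MXD1, a repressor best known from differentiating cells, had log2 signals of 6.74 and 6.93 in p53 off, 6.95 and 7.41 in p53 on, and 6.73 and 6.95 in p53 on then off. The lower p53 on array was only just above the higher control. Its difference in p53 on was 0.35 ± 0.17 (adjusted p = 0.244), and 8 of 9 probe sets were higher in both experiments. MXD3, the family member associated with proliferating cells, had 5.20 and 4.98 in p53 off, 4.81 and 4.69 in p53 on, and 4.77 and 4.99 in p53 on then off. The p53 on arrays were both below the controls, and it differed by -0.34 ± 0.18 (adjusted p = 0.273), with 2 of 7 probe sets higher in both experiments and 0 lower in both, so the median and the single probe sets did not point one way.

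MNT, the most widely expressed of the MAX-binding repressors, had log2 signals of 5.70 and 5.72 in p53 off, 5.73 and 5.86 in p53 on, and 5.69 and 5.94 in p53 on then off. The p53 on arrays were just above both controls, and all 6 arrays lay close together. Its difference in p53 on was 0.09 ± 0.17 (adjusted p = 0.799, 95% confidence interval from -0.30 to 0.47). MLX, the partner of MondoA and ChREBP, had 7.73 and 7.999 in p53 off, 7.66 and 7.47 in p53 on, and 7.79 and 8.19 in p53 on then off. Both p53 on arrays were below both controls, and the difference was -0.30 ± 0.20 (adjusted p = 0.379), with -0.07 and -0.53 in the experiments. Of the 9 MLX probe sets, 6 were lower in both experiments and 0 higher in both.

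**Figure D2:**
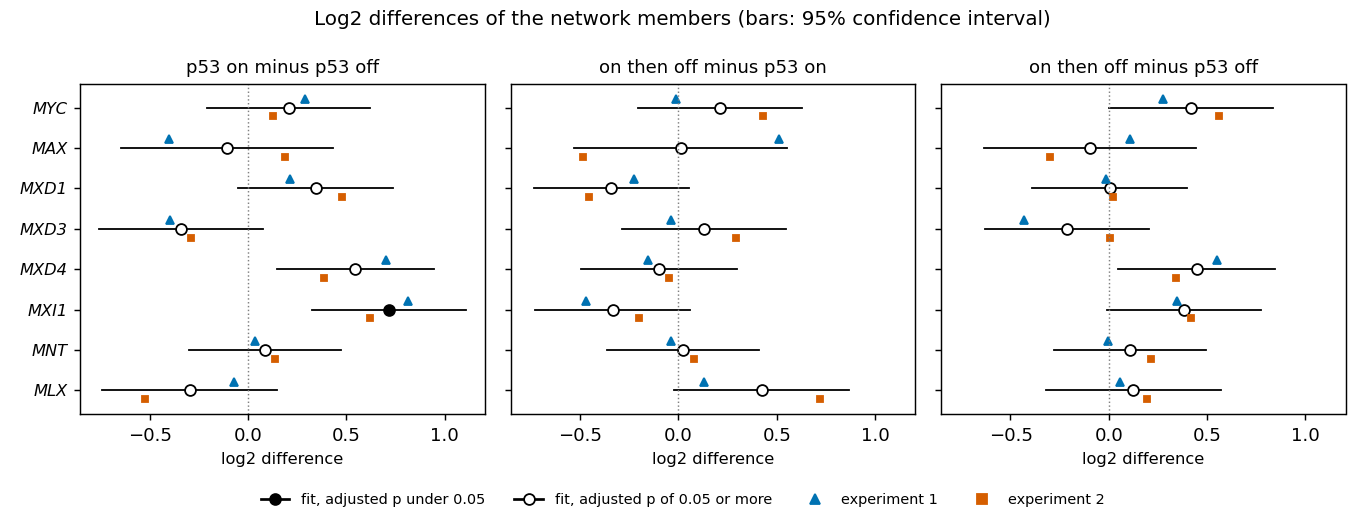
Log2 difference (x axis) of each network member (y axis) in the 3 comparisons. Circles are the fitted differences with bars for the 95% confidence interval, filled where the adjusted p was under 0.05, triangles are experiment 1 and squares experiment 2. The only filled circle is MXI1 in p53 on minus p53 off, at 0.72, and the MAX experiments lie on opposite sides of 0 in all 3 panels.

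Recovery for 6 h, set against p53 on, called 0 of the 8 members in limma with the block and 0 without it, and 0 had an unadjusted p under 0.05 in either fit. Over all genes, 3.84% were called higher and 3.39% lower with the block, and 22.2% had an unadjusted p under 0.05, or 12.3% without the block. Without the block 0.143% were called higher and 0.285% lower. MLX was higher in both experiments, against 34.8% of all genes, and MXD1, MXD4 and MXI1 were lower in both, against 31.4%. The arrays of the groups did not overlap for MLX, which was higher (21.3% of all genes), and for MXI1, which was lower (18.3%). MXI1 and MXD1 had the most negative differences. MXI1 differed by -0.33 ± 0.17 (adjusted p = 0.301), with -0.47 and -0.20 in the experiments, and both recovery arrays were below both p53 on arrays. Only 5 of its 13 probe sets were lower in both experiments and 2 were higher in both, against 28.1% and 31.6% of all probe sets. MXD1 differed by -0.34 ± 0.17 (adjusted p = 0.295), with 7 of 9 probe sets lower in both experiments, against 28.1% of all probe sets.

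MLX had the largest positive difference on recovery, at 0.42 ± 0.20 (adjusted p = 0.25), with 0.13 in experiment 1 and 0.72 in experiment 2. Of its 9 probe sets, 7 were higher in both experiments, against 31.6% of all probe sets. It passed with the mean of the probe sets (0.53, adjusted p = 0.0347). The MYC difference was 0.21 ± 0.18 (adjusted p = 0.563), and it came from experiment 2, at 0.43, while experiment 1 gave -0.01. MXD3 differed by 0.13 ± 0.18, MXD4 by -0.10 ± 0.18, MNT by 0.02 ± 0.17 and MAX by 0.01 ± 0.24, with adjusted p between 0.747 and 0.987. The MAX value is a mean of 0.51 and -0.49. Of the 17 MAX probe sets, 7 were higher in both experiments and 3 lower in both, against 31.6% and 28.1% of all probe sets. The MAX median lies between brighter and dimmer probe sets and can rest on different ones on different arrays. The brightest, at mean log2 levels of 9.22 and 9.07, differed by 0.46 and 0.58, and a dimmer one at 4.05 by -1.19. With both arrays kept in each compared group, the settings gave MAX from -0.011 to 0.435, not called in any.

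**Figure D3:**
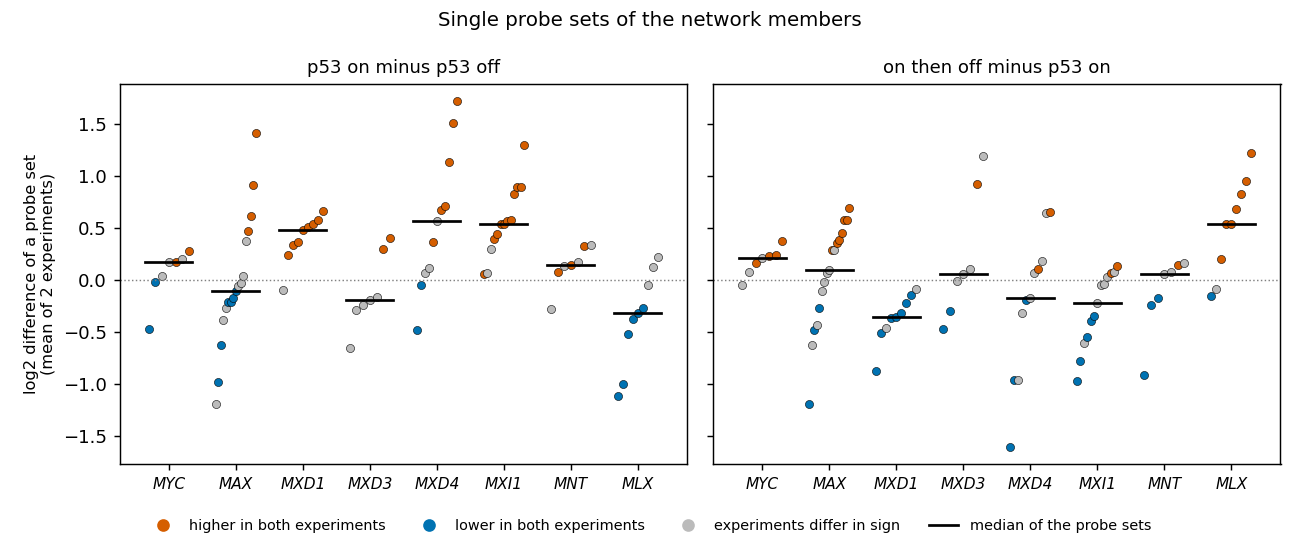
Log2 difference (y axis, mean of both experiments) of each probe set of the members (x axis), for p53 on minus p53 off and for recovery minus p53 on. Colours give the sign in the experiments and bars the median of the probe sets. All 13 MXI1 points lie above 0 in p53 on, while MAX points run from -1.19 to 1.41.

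After recovery, set against cells in which p53 was never switched on, 0 of the 8 members were called in limma with the block and 0 without it, against 0.207% of genes called higher and 0.392% lower with the block, and 0.0285% and 0% without it. MYC, MXD4, MXI1 and MLX were higher in both experiments, against 33.4% of all genes, and 0 members were lower in both, against 27.6%. Recovery arrays lay above both controls for 3 members, against 20.4% of all genes, and below both for 0, against 14.5%. At an unadjusted p under 0.05 there were 2 members with the block, MYC and MXD4, and 0 without it, against 13% and 5.32% of all genes. MYC differed by 0.42 ± 0.18 (adjusted p = 0.383, 95% confidence interval from 0.00 to 0.83), with 0.28 and 0.56 in the experiments, and 6 of its 7 probe sets were higher in both and 1 lower, against 30.3% and 26.4% of all probe sets. MXD4 differed by 0.45 ± 0.18 (adjusted p = 0.329) and MXI1 by 0.38 ± 0.17 (adjusted p = 0.399), each with both recovery arrays above both controls. The other 5 members lay between -0.21 (MXD3) and 0.13 (MLX), with adjusted p from 0.674 to 0.993. The 3 comparisons share arrays, so their values for a member are not independent.

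In order of mean signal over the groups, MXI1 ran p53 off, recovery, p53 on, and the step between p53 off and p53 on is the one that passed. MYC ran p53 off, p53 on, recovery, and neither step between neighbours in that order passed the threshold. The orders of MXD1 and MXD4 also ran upward to p53 on, and those of MXD3 and MLX were lowest in p53 on, with no step past the threshold.

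Among the other genes of the family only MGA passed the threshold, and only on recovery from p53 on. Of 5 measured (MYCN, MYCL1, MGA, MLXIP and MLXIPL), 0 were called in p53 on with the block or without it. Over all genes, 5.18% were called higher and 6.28% lower with the block, and 0.898% and 0.585% without it. MGA, a large MAX-binding repressor of germ-line genes, had log2 signals of 5.85 and 5.71 in p53 on, against 6.31 and 6.47 in p53 off. Its p53 on arrays were below the controls by 0.61 ± 0.17 (adjusted p = 0.0564). On recovery MGA stood at 6.48 and 6.48 and rose by 0.70 ± 0.17 over p53 on (adjusted p = 0.0469, or 0.196 without the block), 1 of the 5 genes against 3.84% of all genes. The call was lost without either p53 on array or either recovery array. MLXIP had the smallest p after recovery, at -0.26 from p53 off (adjusted p = 0.626).

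The SIN3 corepressor is what MXD proteins, MXI1 and MNT recruit. Of 12 measured subunits, 3 fell in p53 on and 0 rose, against 6.28% of all genes called lower and 5.18% higher. The list median was -0.39, against 0.02 for all genes. ING2, a reader of histone methylation, fell by 1.04 ± 0.19 (adjusted p = 0.0118), SUDS3, a scaffold subunit, by 0.98 ± 0.18 (adjusted p = 0.0111), and RBBP4, a histone-binding subunit shared with other complexes, by 0.65 ± 0.18 (adjusted p = 0.0476). The RBBP4 call was lost without any single array, that of ING2 without p53 off array 2 or p53 on array 2, and that of SUDS3 without p53 off array 2. Without the block 0 subunits were called, against 0.585% of all genes called lower and 0.898% higher. On recovery ING2 rose by 0.87 ± 0.19 over p53 on (adjusted p = 0.0321), the only call among the subunits, lost without either recovery array or p53 on array 2. That 1 of 12 stands against 3.84% of all genes called higher on recovery. ARID4B had the smallest p of recovery against p53 off, at -0.44 (adjusted p = 0.336).

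Among 14 measured coactivators and partners of MYC, 0 rose and BPTF, a chromatin remodelling subunit, fell in p53 on by 0.68 ± 0.17 (adjusted p = 0.0348, or 0.148 without the block), with a list median of -0.08. A call for 1 of 14 is close to the 6.28% of all genes called lower. It was lost without any 1 of the p53 on or p53 off arrays. BPTF differed by 0.58 on recovery from p53 on (adjusted p = 0.0763), and HCFC1 by -0.51 on recovery from p53 off (adjusted p = 0.254).

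Several genes that act on the MYC protein had larger log2 differences than MYC itself. Of 14 measured, 5 fell and 1 rose in p53 on (list median -0.29), against 6.28% of all genes called lower and 5.18% higher. Without the block 1 fell and 0 rose, against 0.585% and 0.898%. SKP2, a ubiquitin ligase subunit that acts on MYC and on cell cycle inhibitors, had log2 signals of 6.40 and 6.65 in p53 on, against 7.999 and 8.61 in p53 off. Both p53 on arrays were well below both controls, and SKP2 fell by 1.78 ± 0.19 (adjusted p = 0.00148, or 0.0658 without the block). USP28, a deubiquitinase that protects MYC, had 5.86 and 6.02 in p53 on, against 7.63 and 7.47 in p53 off. It fell by 1.61 ± 0.18 (adjusted p = 0.00146, or 0.02 without the block), with the groups far apart. KIAA1524 (CIP2A), which shields MYC from a phosphatase, fell by 1.16 ± 0.17 (adjusted p = 0.00504, or 0.45 without the block). These 3 stayed called when any 1 array was left out. SKP2 is also a gene of the cell cycle.

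FBXW7, the ubiquitin ligase receptor that marks MYC for destruction, had log2 signals of 5.83 and 5.72 in p53 off, 7.11 and 6.31 in p53 on, and 5.62 and 4.88 in p53 on then off. It was highest in p53 on in both experiments. It rose by 0.94 ± 0.21 in p53 on (adjusted p = 0.0247, or 0.259 without the block), a call lost without p53 off array 1 or p53 on array 1, and it fell by 1.47 ± 0.21 on recovery (adjusted p = 0.00708, or 0.149 without the block). Also on recovery, SKP2 rose by 1.90 ± 0.19 (adjusted p = 0.00197) and USP28 by 1.22 ± 0.18 (adjusted p = 0.00708), with adjusted p of 0.0868 and 0.0698 without the block. In all, 3 of these 14 genes rose and 1 fell on recovery, against 3.84% of all genes called higher and 3.39% lower. Without the block 0 rose and 0 fell, against 0.143% and 0.285%. Against p53 off, 0 were called after recovery, where 0.207% of all genes were called higher and 0.392% lower. KIAA1524 had the smallest p (-0.84, adjusted p = 0.0814).

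Of 17 tested regulators of MYC transcription or of its transcript, 1 rose in p53 on and 0 fell, with and without the block. That count is close to the 5.18% of all genes called higher with the block, against 0.898% without it. PRDM1, a repressor known in B cells to shut off MYC, had log2 signals of 6.09 and 5.57 in p53 on, against 3.23 and 2.998 in p53 off, which are under the dim level. With the control raised to that level its rise was at least 4.65-fold (2.72 ± 0.18 as measured, adjusted p = 0.000113, or 0.00729 without the block). On recovery it stood at 3.62 and 3.40 and fell at least 4.65-fold, again with the level under the filter raised to it (-2.32 ± 0.18 as measured, adjusted p = 0.000489). CTCF, an insulator protein, rose by 0.67 ± 0.17 on recovery (adjusted p = 0.0475, or 0.353 without the block), and was called only with all p53 on and recovery arrays present. TCF7L2, a partner of β-catenin, differed by -0.89 on recovery from p53 off (adjusted p = 0.117).

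**Figure D4:**
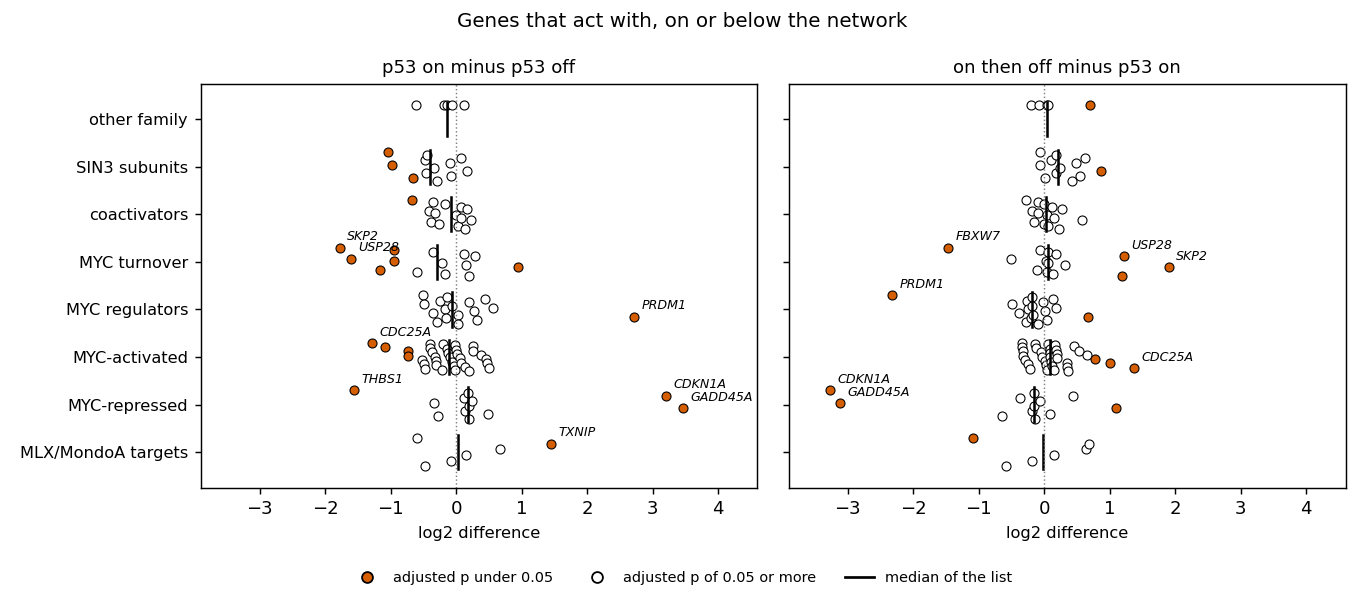
Log2 difference (x axis) of single genes in 8 lists around the network (y axis), for p53 on minus p53 off and recovery minus p53 on. Filled points had an adjusted p under 0.05 and bars are list medians, with named points beyond 1.2 log2 units. PRDM1, SKP2 and USP28 lie far from 0 on opposite sides in the panels, which share the p53 on arrays.

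Of 34 genes that MYC activates, 4 fell and 0 rose in p53 on, against 6.28% of all genes called lower, with a list median of -0.10. CDC25A, a phosphatase that opens the cell cycle, fell by 1.28 ± 0.18 (adjusted p = 0.00403), CAD, the enzyme that starts pyrimidine synthesis, by 1.08 ± 0.20 (adjusted p = 0.011), and TFAP4, an E-box factor, by 0.74 ± 0.19 (adjusted p = 0.037). CDC25A kept its call without any 1 array and without the block (adjusted p = 0.0494). There it was the only one, against 0.585% of all genes called lower. CAD lost its call without p53 off array 1, and TFAP4 without p53 off array 2 or p53 on array 2. On recovery 3 of the 34 rose and 0 fell, against 3.84% of all genes called higher and 3.39% lower. Without the block 0 rose and 0 fell, against 0.143% and 0.285%. CDC25A rose by 1.37 ± 0.18 (adjusted p = 0.0054), CAD by 1.00 ± 0.20 (adjusted p = 0.0211) and GART, of purine synthesis, by 0.77 ± 0.20 (adjusted p = 0.0498). CAD lost this call without p53 on array 1 or recovery array 2, and GART without p53 on array 2 or either recovery array. TERT, the telomerase subunit, had the smallest p of recovery against p53 off, at 0.80 (adjusted p = 0.104).

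Of 12 genes that MYC represses, 2 rose and 1 fell in p53 on, against 5.18% of all genes called higher and 6.28% lower, with a list median of 0.18. The risers, GADD45A (3.47 ± 0.17, adjusted p = 2.7e-05) and CDKN1A, are themselves direct targets of p53. THBS1, an inhibitor of vessel growth, fell by 1.56 ± 0.19 (adjusted p = 0.0024, or 0.084 without the block). On recovery GADD45A fell by 3.12 ± 0.17 (adjusted p = 0.000117) and CDKN1A by 3.26 ± 0.19 (adjusted p = 0.000136), while THBS1 rose by 1.10 ± 0.19 (adjusted p = 0.0139, or 0.234 without the block), a call lost without recovery array 1.

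Of 6 targets of MLX and MondoA, TXNIP, an inhibitor of thioredoxin and of glucose uptake, was the only call. It had log2 signals of 8.95 and 9.15 in p53 off, 10.53 and 10.48 in p53 on, and 9.44 and 9.38 in p53 on then off. The p53 on arrays were above all others, and recovery lay between. It rose by 1.45 ± 0.17 in p53 on (adjusted p = 0.00206, or 0.0256 without the block) and fell by 1.09 ± 0.17 on recovery (adjusted p = 0.0102, or 0.0844 without the block), a call lost without recovery array 2. Over the 6 genes, 3 differences in p53 on were positive and 3 negative, from -0.60 to 1.45. The list's median was 0.03, close to the 0.02 of all genes, and 1 of 6 genes called higher stands against 5.18% of all genes.

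The genes with the most similar course to MYC over the 6 arrays were found by the distance between log2 profiles, each centred on its own mean, among 14026 genes. They were PHF16 (now JADE3) at a distance of 0.10, IL1F5 (now IL36RN) at 0.11, OSBP2 at 0.11, CIRH1A (now UTP4) at 0.14 and LOC375196 at 0.16, where the MYC profile itself spanned 0.80. Nearest to MXI1 were SIRT7 at 0.06, TMEM192 and C21orf119 (now URB1-AS1) at 0.15 each, GPR179 at 0.16 and ALDH2 at 0.17. SIRT7, a deacetylase of the nucleolus, stood at 6.45 and 6.47 in p53 off, 7.24 and 7.07 in p53 on, and 6.83 and 6.94 in p53 on then off. These likenesses are descriptions over arrays that share their cultures and experiments.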

How the data were processed

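Total RNA of 6 cultures was hybridised to Human Gene 1.0 ST arrays (Affymetrix), per the labels. The deposited values are log2 signals for 257430 exon-level probe sets, a unit judged from their range of -0.85 to 13.14. Which program, background step or scaling made them is not given in the sources used here. Column medians lay between 5.24 and 5.31, and no scaling was added.

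Probe sets with only 1 symbol were reduced to their median per gene and array (224320 probe sets, platform annotation). The lowest 25% of genes by mean signal were left out. Groups came from the sample titles. All 3 groups were fitted together in limma 3.58.1 (R 4.3.3) with a replicate block for experiment 1 or 2, because the members were to be compared within each experiment number. Benjamini-Hochberg adjustment of p-values ran across the whole set of tested genes. Same-numbered arrays deviated together, with correlations of 0.496, 0.63 and 0.551 across genes for p53 on with p53 off, recovery with p53 on, and recovery with p53 off. Nothing says that the experiments were separate cultures beyond their number, so p-values measure the spread between these arrays. With 2 against 2, an exact permutation test cannot go below 0.333.

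The members and lists were chosen with earlier results of these data known. Named genes were the members, per list the 3 called genes with the largest change or, with none called, the smallest p, check genes, and the 5 nearest profiles. Genes written with an older symbol follow the platform. MYCL was found as MYCL1, and some listed genes are not reported here. The alternatives are the fit without the block, other summaries of probe sets, other filters, quantile normalization, an intensity trend, fewer groups and single arrays left out.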

Additional observations from a re-analysis of the deposited data

How the results depend on the processing

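The fit without the replicate block was the setting that changed most. In p53 on minus p53 off it called 126 genes higher and 82 lower, where the blocked fit called 726 and 881, and 0 members, with MXI1 at 0.72 (adjusted p = 0.139). It called 20 higher and 40 lower for recovery minus p53 on (539 and 476 with the block), and 4 and 0 for recovery minus p53 off (29 and 55 with the block). With the mean of the probe sets the calls were 1183 and 1484, 1121 and 846, and 117 and 202 in the same order of comparisons, with 2 members higher in the first and 1 in the second. Without the filter on dim genes they were 427 and 466 with 0 members and MXI1 at 0.72 (adjusted p = 0.0709), 205 and 206, and 10 and 1. An intensity trend gave 834 and 719 for recovery minus p53 on and 79 and 162 for recovery minus p53 off. In that last comparison, bright probe sets alone gave 55 and 98, a filter at 50% gave 85 and 169, and a fit without the p53 on arrays gave 94 and 152. Leaving out 1 array at a time gave 348 to 733 genes higher, 265 to 896 lower and 0 to 1 members higher in p53 on minus p53 off, 194 to 675 and 207 to 584 in recovery minus p53 on, and 13 to 94 and 4 to 152 in recovery minus p53 off. MXI1 ranged from 0.60 to 0.83 in p53 on minus p53 off with 1 array left out, and from 0.57 to 0.74 under the other settings.

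Signs changed only for differences that were not called. In recovery minus p53 on, MNT was -0.12 with the mean of the probe sets and MAX -0.011 after quantile normalization. In recovery minus p53 off, the mean gave 0.021 for MAX and 0.10 for MXD3, bright probe sets gave 0.051 for MAX, and shared probe sets, chosen after seeing the data, gave -0.030 for MXD1. With 1 array left out, p53 on minus p53 off ran from -0.51 to 0.29 for MAX. Recovery minus p53 on ran from -0.39 to 0.41 for MAX, -0.063 to 0.32 for MXD3, -0.20 to 0.0069 for MXD4 and -0.0615 to 0.11 for MNT. Recovery minus p53 off ran from -0.45 to 0.25 for MAX, -0.071 to 0.0795 for MXD1, -0.0555 to 0.31 for MLX, -0.28 to 0.16 for CDKN1A, -0.0014 to 0.59 for CD14 and -0.52 to 3e-04 for TEK. The cause of these changes was not tested. Of 336 member values under the alternatives, 312 kept their direction and side of the threshold. The number of arrays limits the precision, and a lone array left in a group is assumed to vary like the other groups. MXD3 and MXD4 lay under the 50% filter and have no value there.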
